A study of Mus musculus with 3 samples.

Results

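The ERK pathway feedback inhibitors are proteins that restrain the ERK kinase cascade and whose genes are often induced by that cascade. The group examined here is a named list of 10 mouse genes, the dual-specificity phosphatases Dusp1, Dusp4, Dusp5, Dusp6 and Dusp14, the Sprouty genes Spry1, Spry2 and Spry4, and the Spred genes Spred1 and Spred2. All 10 were found among the 54232 gene identifiers of the count files, and each of the 10 passed a filter of at least 1 CPM, a count scaled to library depth, in at least 1 library, as did 13884 genes in all.

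The series is RNA-seq of cultured cortical neurons from wildtype CD1 mice and concerns whether conductive and bioactive scaffolds promote neuronal maturation. Neurons of the first group grew with a peptide amphiphile (PA), a self-assembling peptide material, that displays IKVAV, a short laminin sequence. The second group had the same kind of PA with an added component, called PS2 in the sample title and PEDOT-S_OH in the library name, taken here to be 1 material, the conducting polymer PEDOT-S. The third group is the control, with PDL in its library name, which the labels do not spell out. The labels give 1 library for each group, all numbered repeat 3, and state neither the age of the cultures nor the time on the scaffold. The treatment field reads peptide amphiphile for all 3 libraries, including the control, so the groups rest on titles and library names.

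Total counts were 124425958 in the IKVAV PA library, 79057998 in the IKVAV PA + PEDOT-S library and 78993105 in the PDL control library. With 1 library a group no difference below has a replicate check and none was tested. What is described is how 3 cultures compare. Intervals are at the 95% level and allow for counting error alone. Of the neuronal markers 6 of 6 passed the filter, but so did 6 of 6 astrocyte and 6 of 6 progenitor markers. The neuronal label rests here on level, with a sum of 7018 to 7169 normalised CPM for the neuronal markers. Markers of other cells were present at lower levels and are given further below.

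ERK is the last kinase of a cascade that runs from receptor tyrosine kinases through Ras, Raf and MEK. Growth factors and neurotrophins switch it on, and in neurons calcium entry does so as well. The dual-specificity phosphatases remove phosphate from ERK and related kinases, while Sprouty and Spred proteins act further up, between the receptor and Raf. Because ERK activity induces many of these genes, their mRNA is often read as a trace of recent signalling, although phosphorylated ERK itself was not measured in this series.

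Stretches of DNA just before the start sites of 4 of these genes are shown first. Those of Dusp1, Dusp5 and Dusp6 hold letter matches to motifs of transcription factors that kinase signalling can act on. That of Spry2 holds none of those searched. Whether such factors act on these genes here was not measured. RefSeq promoter entries on GRCm38.p6 matched 8 of the 10 genes. Each line gives, 5′ to 3′ on the strand of the gene, the bases from 160 to 41 before the annotated start, with the CRE, CArG or ETS match in capitals and the shorter CRE core left in lower case. The stretches lie at chr17:26508513-26508632 for Dusp1 (minus strand), chr19:53528985-53529104 for Dusp5 (plus), chr10:99263071-99263190 for Dusp6 (plus) and chr14:105896860-105896979 for Spry2 (minus).
Dusp1: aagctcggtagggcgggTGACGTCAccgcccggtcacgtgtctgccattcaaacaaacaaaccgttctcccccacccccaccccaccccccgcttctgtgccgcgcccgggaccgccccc
Dusp5: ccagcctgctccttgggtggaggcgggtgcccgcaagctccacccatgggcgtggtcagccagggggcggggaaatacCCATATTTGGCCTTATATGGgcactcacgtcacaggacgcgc
Dusp6: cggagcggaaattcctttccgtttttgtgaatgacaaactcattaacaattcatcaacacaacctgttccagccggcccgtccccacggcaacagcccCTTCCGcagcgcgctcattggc
Spry2: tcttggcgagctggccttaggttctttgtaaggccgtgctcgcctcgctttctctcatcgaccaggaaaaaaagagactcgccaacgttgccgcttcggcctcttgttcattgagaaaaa

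The capitals in Dusp1 mark a full cAMP response element (CRE, TGACGTCA), the site bound by CREB, starting 143 bases before the start. In Dusp5 they mark a pair of adjoining CArG boxes, the sites of serum response factor, starting 82 and 72 bases before it. In Dusp6 they mark an ETS core (CGGAAG, here on the opposite strand) starting 62 bases before it. Over the 250 bases before the start and both strands, a CRE was found in 1 of the 8 promoters (Dusp1), against 1.55% of 32851 promoters. A CArG box was found in 1 of 8 (Dusp5), against 1.47% of all, and the ETS core in 4 of 8 (Spred1, Spred2, Dusp6 and Dusp14), against 13.6%. The shorter CRE core TGACG, which also lies inside the full CRE, was found in 3 of 8 (Dusp1, Dusp5 and Spred2), against 17.8%. AP-1 sites (TGANTCA), EGR sites (GCGTGGGCG) and the TATA sequence TATAAA were found in none of the 8, against 6.75%, 0.536% and 12.4% of all promoters. These matches describe the letters and do not show that a factor was bound. G and C made up 56.0% (Spred2) to 70.8% (Spred1) of the 250 bases, against a median of 52.4% over all promoters. The shares were not matched for this, so they do not show that a motif is more frequent in these genes. In the GENCODE M21 annotation the Dusp6 and Spry2 stretches touch no exon, and the whole Dusp5 stretch lies in exons of an antisense gene. The Dusp1 stretch lies wholly within the GENCODE span of Dusp1, with 7 bases in an exon of that gene. The RefSeq start used for Dusp1 is thus inside that span and is not its 5′ end.

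Across the 3 libraries, most of these genes were lowest in the IKVAV PA library and highest in the PDL control, with the PEDOT-S library in between or at the control's level. In the IKVAV PA library 9 of the 10 had their lowest level, as did 33.4% of all 13884 genes. The PDL control held the highest level of 8 of the 10, against 31.8% of all genes, and the order PDL control, IKVAV PA + PEDOT-S, IKVAV PA was that of 7 genes. Dusp1 and Spred2 were highest with PEDOT-S, and Dusp14 was the 1 gene lowest there. Some of these orders lie within counting error. The interval of the PEDOT-S library against the control included 0 for Dusp1, Dusp5, Spry1 and Spry2. So did that between the scaffolds for Dusp14 and, barely, that of IKVAV PA against the control for Spred2. The differences were modest in size. A gene was counted as higher or lower where the end of its counting interval nearest to no difference lay beyond 1.5-fold, and by that rule 1 gene, Spry4, was lower in 1 of the 3 comparisons. The plot of levels by library shows each value.

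**Figure D1:**
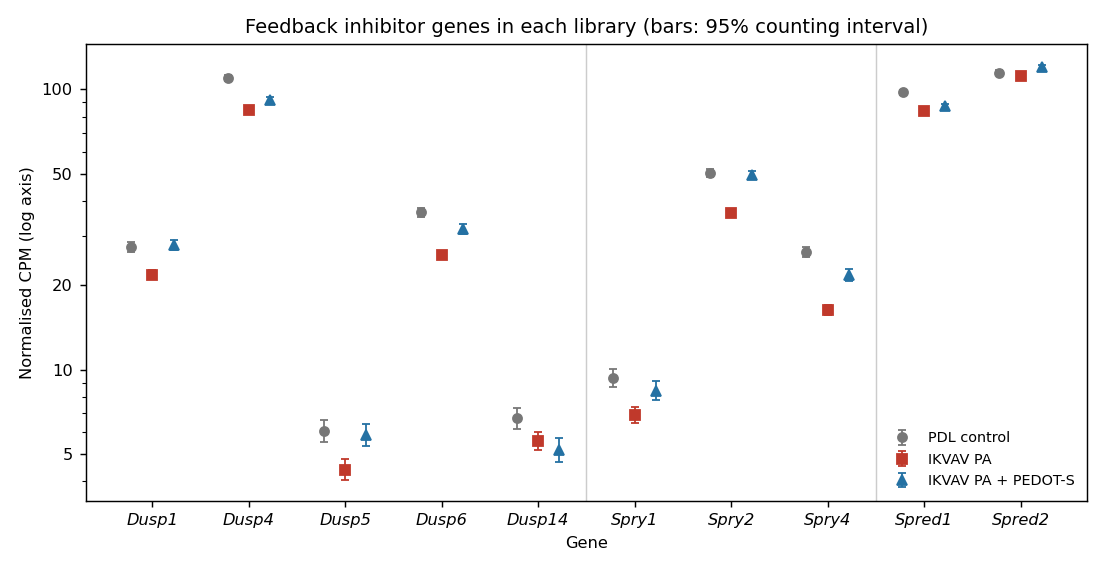
Normalised CPM on a log axis for the 10 genes in the PDL control (grey circles), IKVAV PA (red squares) and IKVAV PA + PEDOT-S (blue triangles) libraries, with 95% counting intervals as bars and 1 library a group. The red square is the lowest of the 3 for each gene but Dusp14, and the gap is widest for Spry4, at 16.3 against 26.3 CPM in the control.

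Dusp4 encodes a nuclear phosphatase that acts on ERK and JNK, and lies at chr8:34807297-34819894. Its level was 110 normalised CPM in the PDL control, 84.4 in the IKVAV PA library and 91.7 in the PEDOT-S library. Both scaffold libraries were therefore below the control, by 1.30-fold without PEDOT-S. The log2 ratio was -0.38 (interval -0.42 to -0.34) for IKVAV PA and -0.26 (-0.31 to -0.21) for IKVAV PA + PEDOT-S, and the step between the scaffolds was 0.12 (0.08 to 0.16).

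Dusp6, at chr10:99263231-99267489, encodes the cytoplasmic phosphatase that is most selective for ERK and a commonly used readout of its activity. It stood at 36.4 CPM in the control, 25.7 with IKVAV PA and 31.7 with IKVAV PA + PEDOT-S. The IKVAV PA library was 1.42-fold below the control (log2 ratio -0.51, interval -0.58 to -0.43). The PEDOT-S library lay between the others, at -0.20 against the control and 0.31 against IKVAV PA, and the 3 counting intervals did not overlap.

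Dusp1, at chr17:26505590-26562128, encodes a nuclear phosphatase that acts on p38 and JNK as well as ERK and is itself an immediate early gene. Its levels were 27.4 CPM in the control, 21.8 with IKVAV PA and 27.9 with IKVAV PA + PEDOT-S, so that the control and the PEDOT-S library lay together and the IKVAV PA library apart. The log2 ratio was -0.33 (-0.41 to -0.24) for IKVAV PA and 0.03 (-0.06 to 0.11) for IKVAV PA + PEDOT-S against the same control, and 0.35 (0.27 to 0.43) between the scaffolds. The small ratio of PEDOT-S to control changed sign under 1 of the other scalings, upper-quartile factors (-0.01).

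Dusp5, at chr19:53529109-53542431, encodes a nuclear phosphatase specific for ERK, and it was weakly expressed. From 481, 549 and 458 counts, its levels were 6.04 CPM in the control, 4.41 with IKVAV PA and 5.85 with IKVAV PA + PEDOT-S. The pattern was that of Dusp1, with log2 ratios of -0.45 (-0.63 to -0.28), -0.05 (-0.23 to 0.14) and, between the scaffolds, 0.41 (0.23 to 0.59). Its value is uncertain, since 22.1% of its exonic bases are shared with an antisense gene and the strand setting of the counting is not given in the sources used here.

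Dusp14, at chr11:84048041-84069261, encodes a small phosphatase without the kinase-docking domain of the other 4, and it departed from their order. It stood at 6.72 CPM in the control, 5.57 with IKVAV PA and 5.17 with IKVAV PA + PEDOT-S. Both scaffold libraries were below the control, at log2 ratios of -0.27 (-0.44 to -0.11) and -0.37 (-0.57 to -0.19). Between the scaffolds it was at -0.11, with an interval from -0.29 to 0.07 that includes no difference.

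The products of the Sprouty genes interfere with the link from activated receptors to Ras and Raf. For IKVAV PA against the control their median log2 ratio was -0.48, beside -0.38 for the phosphatases, although Dusp6 was lower than Spry1 and Spry2. Spry4 stood at 26.3 CPM in the control, 16.3 with IKVAV PA and 21.8 with IKVAV PA + PEDOT-S. Its IKVAV PA level was 1.61-fold below the control (log2 ratio -0.69, interval -0.78 to -0.60), which passed the 1.5-fold bound (0.58 on this scale) by a narrow margin. Against the same control the PEDOT-S library was at -0.27 (-0.37 to -0.18), and it was 0.42 (0.32 to 0.51) above IKVAV PA.

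Spry2, at chr14:105891947-105896819, had the widest step between the 2 scaffolds. Its levels were 50.4 CPM in the control, 36.2 with IKVAV PA and 49.4 with IKVAV PA + PEDOT-S. The log2 ratio was -0.48 (-0.54 to -0.42) for IKVAV PA against the control, but -0.03 (-0.09 to 0.03) for IKVAV PA + PEDOT-S. Between the scaffolds it was 0.45 (0.39 to 0.51), a difference exceeded in that direction by 2.12% of the 13884 genes.

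Spry1, at chr3:37639947-37644598, was weaker, with 9.37 CPM in the control, 6.90 with IKVAV PA and 8.43 with IKVAV PA + PEDOT-S. The log2 ratios were -0.44 (-0.58 to -0.30) and -0.15 (-0.30 to 0.00) against the control and 0.29 (0.14 to 0.44) between the scaffolds. The interval of the PEDOT-S library against the control reached 0, but ended at -0.04 with upper-quartile factors. A gene model on the opposite strand, Gm42922, overlaps 24.4% of the exonic bases of Spry1 and makes its value uncertain, though that model itself held 43, 22 and 13 counts in the IKVAV PA, PEDOT-S and control libraries, against 860, 660 and 746 for Spry1.

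The Spred genes moved least. Their products bring neurofibromin, the Ras-inactivating protein encoded by Nf1, to the membrane. Spred1, at chr2:117121374-117182279, stood at 97.6 CPM in the control, 84.1 with IKVAV PA and 87.0 with IKVAV PA + PEDOT-S, so that both scaffold libraries lay below the control, at log2 ratios of -0.21 (-0.26 to -0.17) and -0.17 (-0.21 to -0.12). Spred2, at chr11:19924375-20024026, stood at 115 CPM in the control, 112 with IKVAV PA and 119.99 with IKVAV PA + PEDOT-S. Its log2 ratio of -0.04 was the nearest to no difference of the 10 for IKVAV PA against the control, and 39.7% of all genes had a lower ratio there. With PEDOT-S the ratio to the control was 0.07.

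Taking the comparisons in turn, IKVAV PA against PDL control gave a negative log2 ratio for 10 of 10 genes, against 49.96% of all genes, and a counting interval wholly below 0 for 9 of them, against 28.9% of all genes. The median of the 10 was -0.41, from -0.69 for Spry4 to -0.04 for Spred2, beside a median of 0.00 over all 13884 genes. By the 1.5-fold rule 1 of the 10, Spry4, was lower and none was higher. Of all genes 3.96% passed it, 0.54% higher and 3.42% lower, so that the count of 1 in 10 says little, and the members' shift lay mostly inside the bound. Fewer cells of a type and less of an RNA per cell cannot be told apart in these bulk libraries.

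IKVAV PA + PEDOT-S against the same control gave a median of -0.16, from -0.37 for Dusp14 to 0.07 for Spred2, beside 0.00 over all genes. The ratio was negative for 8 of 10, against 50.6% of all genes. The interval lay wholly below 0 for 5 (Dusp4, Dusp6, Dusp14, Spry4 and Spred1), against 28.5% of all genes, and wholly above it for 1 (Spred2), against 28.6%. None of the 10 passed the bound, against 4.21% of all genes (0.447% higher, 3.76% lower). As both scaffold libraries are set against 1 control library, their ratios share its error.

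Between the scaffolds, IKVAV PA + PEDOT-S against IKVAV PA, the median was 0.30, from -0.11 for Dusp14 to 0.45 for Spry2, beside 0.01 over all genes. The ratio was positive for 9 of 10 and negative for 1, against 48.3% of all genes with a negative ratio. The counting interval lay above 0 for the same 9, as it did for 31.4% of all genes. None passed the 1.5-fold bound, against 2.35% of all genes (0.331% higher, 2.02% lower). In this comparison Spry2, Spry4 and Dusp5 had ratios that 2.12%, 2.61% and 2.76% of all genes exceeded, whereas 39.6% exceeded that of Spred1. Ratios and their intervals are drawn in the plot of the 3 comparisons.

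**Figure D2:**
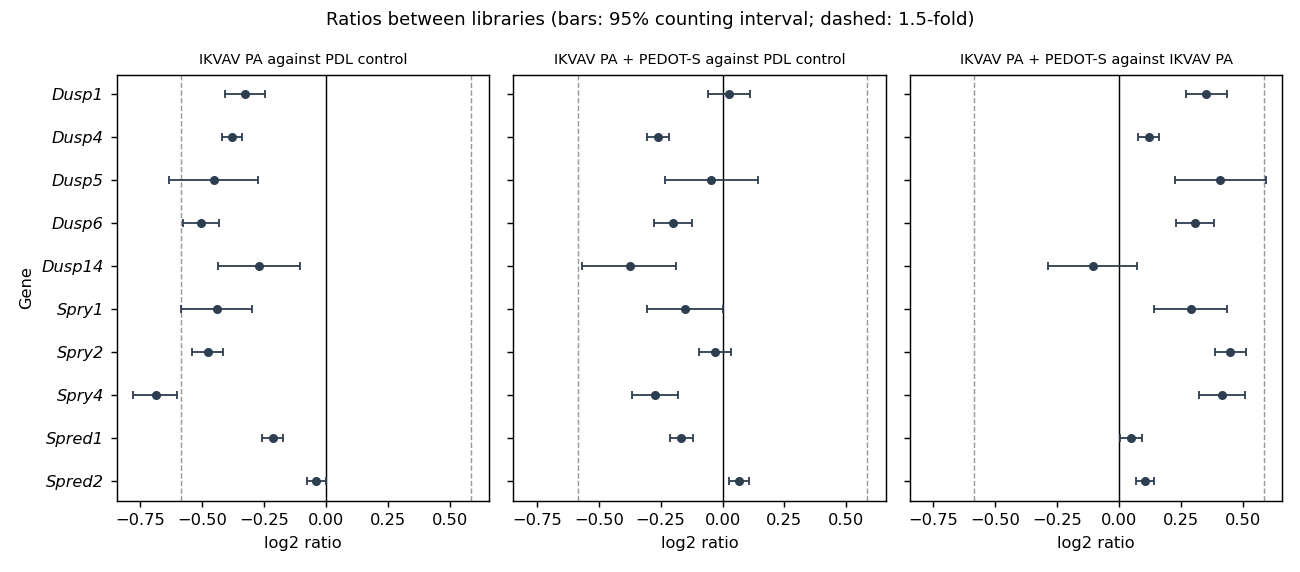
log2 ratio of normalised CPM for each gene in the 3 comparisons, with 95% counting intervals as bars and dashed lines at 1.5-fold. In the left panel the 10 points lie left of 0 and Spry4 (-0.69) is the 1 whose interval clears the dashed line; in the right panel 9 points lie right of 0, with Spry2 highest at 0.45.

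The families also differed within a library, where the scaling of libraries plays no part. Sprouty genes made up 15.0% (exact 95% binomial interval 14.7 to 15.3) of the counts of the 10 genes in the IKVAV PA library. They made up 17.7% (17.3 to 18.1) in the PEDOT-S library and 17.8% (17.4 to 18.2) in the control. Spred genes went the other way, with 49.3% (48.8 to 49.7), 46.1% (45.6 to 46.6) and 43.8% (43.3 to 44.3) in the same order. The phosphatases held 35.7%, 36.2% and 38.5%. Sprouty RNA was thus a smaller part of the total with IKVAV PA alone than in either other library, beyond counting error.

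**Figure D3:**
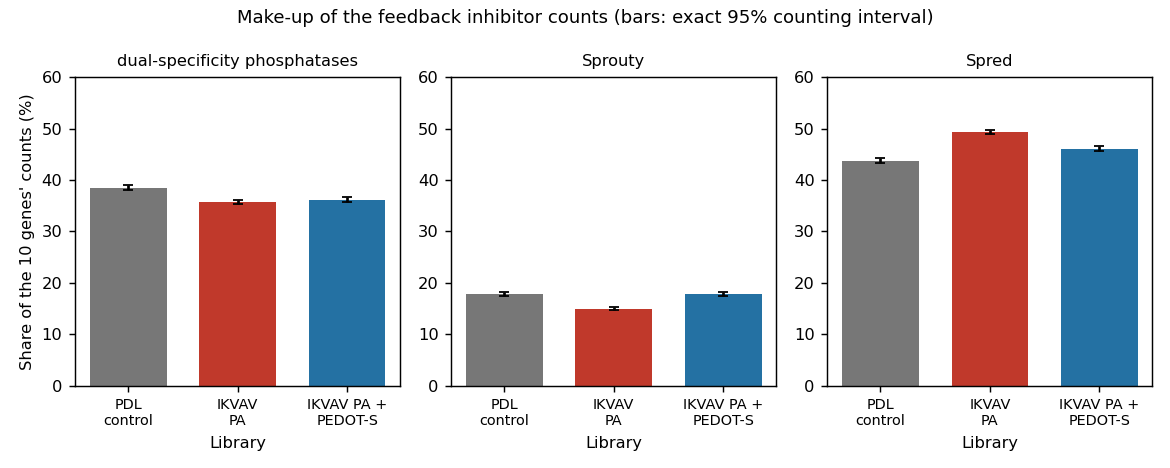
Share of the summed counts of the 10 genes (%) that came from the 5 phosphatase, 3 Sprouty and 2 Spred genes in each library, as bars from 0 with exact 95% counting intervals. The Sprouty bar is lowest with IKVAV PA, at 15.0% against 17.8% and 17.7%, and the Spred bar is highest there, at 49.3%.

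Summed over the 10 genes, the level was 485 normalised CPM in the control, 397 with IKVAV PA and 449 with IKVAV PA + PEDOT-S. The IKVAV PA sum was 81.9% of the control's for the whole group, but 69.0% for the Sprouty genes, 76.1% for the phosphatases and 92.2% for the Spred genes. With PEDOT-S the same sums were 92.6%, 92.5%, 87.1% and 97.5% of the control's.

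Levels can be compared between genes only per length of transcript. Here the normalised CPM was divided by the joint length, in kilobases, of all annotated exons of a gene. That length can exceed that of the transcripts expressed, so the order is approximate. Averaged over the libraries, Dusp4 was highest (34.8 CPM per kb), followed by Spred2 (24.98), Spry2 (21.7), Spred1 (13.2), Dusp6 (9.98), Dusp1 (7.76), Spry4 (4.51), Dusp14 (2.99), Spry1 (2.83) and Dusp5 (2.20). The ranges over the 3 libraries overlapped for Spred2 and Spry2, Dusp6 and Dusp1, Spry4 and Dusp14, Dusp14 and Spry1, and Spry1 and Dusp5. Such ranges set 1 library against another, so for these pairs an order can be read only within a library. Dusp4 lay above Spred2, Spry2 above Spred1, Spred1 above Dusp6 and Dusp1 above Spry4 in each of the libraries without overlap. The order was the same in the 3 libraries, but for Dusp14 and Spry1, which changed places with PEDOT-S. Dusp4 lay above 90.5% of the 13884 genes on this scale and Dusp5 above 29.9%.

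Other genes of the pathway were taken from 6 lists with 103 entries in all. The cascade itself lay close to no difference. Of 20 genes from adaptors and Ras to ERK, 20 passed the filter, and the median log2 ratio was 0.01 for IKVAV PA against the control, 0.01 for IKVAV PA + PEDOT-S against the control and 0.02 between the scaffolds. The 1 gene past the bound was Shc1, an adaptor below receptor kinases, in the PEDOT-S library against the control (2.61 against 4.80 CPM, log2 ratio -0.87, interval -1.13 to -0.63).

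The remaining phosphatases and relatives were 9 genes, of which 7 passed the filter and none passed the bound in any comparison. Their medians were -0.22, -0.02 and 0.11 in the order of comparisons used above. Of the 7, 6 had their lowest level with IKVAV PA, against 33.4% of all genes, and 1 in the control, against 31.2%. With IKVAV PA against the control the ratio was negative for 6, against 49.96% of all genes, and positive for 1. The interval lay below 0 for 4, against 28.9% of all genes. With PEDOT-S against the control the ratio was negative for 4, against 50.6% of all genes, and positive for 3. Between the scaffolds it was positive for 7 of 7, where 48.3% of all genes had a negative ratio. The interval lay above 0 for 5, against 31.4% of all genes. The smallest ratio was that of Dusp7, at 0.02 (-0.05 to 0.09). Dusp8, a phosphatase of JNK and p38 abundant in neurons, was at 325 to 351 CPM over the libraries. Its ratio was -0.02 (-0.04 to 0.01) for IKVAV PA against the control. Spred3 was at -0.22 (-0.26 to -0.17) in that comparison, close to the value of Spred1. Spry3 had no count in any library. Of 12 other negative regulators of receptor kinase and Ras signalling, none passed the bound, with medians of -0.01, -0.02 and 0.00. Among them Pebp1, which binds Raf, was at -0.03 for IKVAV PA against the control.

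Upstream, 15 of 18 receptor kinases passed the filter. By the 1.5-fold rule 5 of them were lower with IKVAV PA than in the control, against 3.42% of all genes. With IKVAV PA + PEDOT-S 4 were lower than in the control, against 3.76% of all genes, and none was higher in either comparison. Egfr, the receptor of EGF, stood at 29.5 CPM in the control, 13.0 with IKVAV PA and 12.2 with IKVAV PA + PEDOT-S. Pdgfra, a receptor carried by oligodendrocyte precursors, stood at 10.7, 4.06 and 1.81 CPM, and Pdgfrb, that of mural cells, at 5.60, 2.30 and 1.94. Both scaffold libraries lay below the control for these 3 receptors. Erbb2 and Fgfr3 were the others lower with IKVAV PA. Erbb2 (log2 ratio -1.98) was weakly expressed, with 71 counts against 184 in the control (0.570 against 2.31 CPM). As Erbb2 passed the filter through the control library alone, its lower ratios to the control are not independent of the filter. Fgfr3 (-0.73, with 13.9% of its exonic bases shared) did not pass the bound with PEDOT-S (-0.55). The receptor median was -0.18, -0.15 and -0.03, and Ntrk2, the BDNF receptor TrkB and the most abundant of the list, was at -0.14 with IKVAV PA against the control.

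Of 24 ligands 17 passed the filter, with medians of -0.22, -0.06 and 0.08. Lower with IKVAV PA than in the control were Fgf2, a mitogen of progenitors (0.433 against 1.07 CPM), and Bdnf, a neurotrophin induced by activity (26.9 against 46.7 CPM, log2 ratio -0.80). Both share over 10% of their exonic bases with another gene. Fgf2, with 54 counts against 85, passed the filter through the control library alone, so its lower ratio is not independent of the filter. No ligand passed the bound in the other comparisons, and Bdnf was at 38.1 CPM with PEDOT-S, between the other libraries.

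Output genes, which ERK signalling is known to induce, were lower in median with IKVAV PA than in the control (-0.35). Their median was 0.04 with PEDOT-S against the control and 0.19 between the scaffolds. The ratio was negative for 17, 8 and 5 of 19 in these comparisons, against 49.96%, 50.6% and 48.3% of all genes. In the IKVAV PA library 13 of the 19 had their lowest level, against 33.4% of all genes. Etv5, an ETS factor that follows FGF and ERK signalling in many tissues, stood at 64.8 CPM in the control, 41.4 with IKVAV PA and 56.3 with IKVAV PA + PEDOT-S. Its ratio of -0.65 (-0.70 to -0.59) passed the bound narrowly, as that of Spry4 did. Etv4, its close relative, was lower still with IKVAV PA, at 2.33 against 5.89 CPM (-1.33, -1.56 to -1.13), with the PEDOT-S library at 3.59 CPM.

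Ccnd1, the cyclin D1 gene of dividing cells, did not follow that order. It stood at 10.4 CPM in the control, 5.39 with IKVAV PA and 2.94 with IKVAV PA + PEDOT-S, passing the bound in all 3 comparisons, with 23.4% of its exonic bases shared with another gene. The lists are set side by side in the plot of ratios by gene list. These medians describe the lists beside an all-gene median between 0.00 and 0.01 and do not show that any list stands apart.

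**Figure D4:**
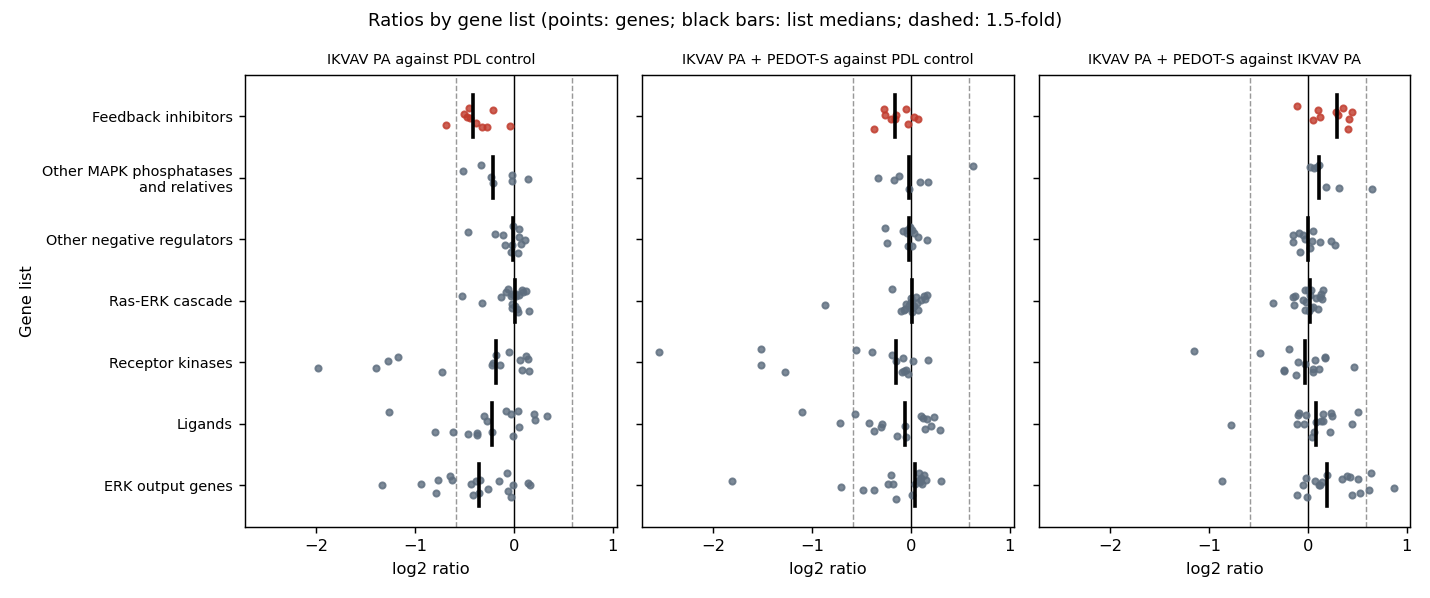
log2 ratio of each gene that passed the filter, by gene list and comparison, with list medians as black bars and dashed lines at 1.5-fold. The feedback inhibitors have medians of -0.41, -0.16 and 0.30 from left to right, the cascade genes lie around 0, and the receptor kinases have a tail below the lower dashed line in the left and middle panels.

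Several cell types other than neurons also express these inhibitors, and their markers moved between the libraries. For IKVAV PA against the control, 4 of 5 markers of oligodendrocyte precursors and 5 of 6 of astrocytes were lower by the 1.5-fold rule. So were 5 of 6 of progenitors and dividing cells and 4 of 6 of meningeal fibroblasts and mural cells, against 3.42% of all genes. None of these was higher by that rule, but the other astrocyte marker, Gfap, had a positive log2 ratio (0.30). With PEDOT-S against the control Gfap was higher by the rule (1.73), whereas the astrocyte markers Aldh1l1, Slc1a3 and Fabp7 were lower. The summed levels in the control, IKVAV PA and PEDOT-S libraries were 61.0, 19.2 and 15.0 CPM for precursors, 194, 61.8 and 81.0 for astrocytes, and 403, 196 and 216 for progenitors and dividing cells. They were 139, 56.3 and 25.5 CPM for fibroblasts and mural cells and 39.1, 49.96 and 81.5 for myelinating oligodendrocytes. Of the 5 myelin markers, Mag and Mobp were higher by the rule with IKVAV PA than in the control, against 0.54% of all genes. Of the others, 1 had a negative ratio (-0.42). With PEDOT-S all 5 were higher than in the control by the rule, against 0.447% of all genes. Microglial markers summed to 2.23 to 2.67 CPM with 1 of 5 past the filter, endothelial markers to 1.65 to 2.64 CPM with 2 of 3, and no marker was at 0 in any library. The part of these cells in the lower inhibitor levels was not tested. Measured against the 6 neuronal markers in place of all genes, the median of the 10 inhibitors was -0.44, -0.16 and 0.33 in the 3 comparisons. This scaling was chosen after seeing the data. It shifts all genes of a comparison nearly alike, and the neuronal sums were close (7169, 7022 and 7018 CPM with IKVAV PA, with PEDOT-S and in the control). The part of other cells therefore cannot be read from it. From IKVAV PA to IKVAV PA + PEDOT-S the precursor and fibroblast sums were lower and the astrocyte, progenitor and myelin sums higher. In that step 2 of 5 precursor markers had a positive ratio and 3 of 6 progenitor markers a negative one. The inhibitor sum was at 113% of that with IKVAV PA.

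Genes with the most similar pattern were sought among 10299 other protein-coding genes at 5 CPM or more on average. Likeness was the distance between the pairs of log2 ratios to the control, so it rests on 3 libraries. Among the nearest to the median pattern of the 10 were Ephb3, an ephrin receptor (distance 0.02), Pter (0.03), A830018L16Rik (0.03) and H2afv, a histone variant (0.03), and 66 genes or 0.641% lay within 0.1. Spry4 had the widest range over the libraries, and nearest to it were Cfap43 (0.01), Pcsk1, a prohormone convertase (0.04), Fos, the immediate early factor (0.07), Wls, a Wnt carrier (0.08), and Etv5 (0.08). Within 0.1 of Spry4 lay 9 genes, or 0.0874%. Fos stood at 49.9 CPM in the control, 32.3 with IKVAV PA and 42.4 with IKVAV PA + PEDOT-S.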

How the data were processed

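The authors deposited whole-number counts per Ensembl gene for 3 libraries. The submitters' processing notes name mm10 and, as tools, HTSeq 2.0.2, STAR 2.7.5, DESeq2 1.14.1 and cutadapt 4.2. The strand setting, the annotation release and any filter are not given there. The labels name total RNA in the protocol but polyA RNA as the molecule.

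GENCODE M21 (GRCm38) gave symbols and exon lengths for 54165 of 54232 identifiers. Libraries were scaled by trimmed-mean (TMM) factors from edgeR 4.0.16 (IKVAV PA 1.00, with PEDOT-S 0.990, PDL control 1.01). Genes at 1 CPM or more in a library were kept. log2 ratios used a prior count of 2. Ratio intervals are exact (Clopper-Pearson) 95% intervals from scipy 1.17.1, and the procedure was tested on simulated data. No molecular identifiers are named in the labels, so reads may not be independent molecules, and the intervals cover counting error only.

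The gene list, the pathway lists and the rules were chosen with earlier results of these data known. Named genes are the 10 members, list genes past the 1.5-fold bound or else the 2 most abundant of a list, and the 5 nearest to each of 2 patterns. Some genes that this rule names are left out of the text. Genes with over 10% of exonic bases shared with another gene (13.4% of those kept) are marked uncertain. Other settings tried were total counts, upper-quartile factors, size factors from DESeq2 1.42.0, other filters, a 2-fold bound, thinning and another prior count.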

Additional observations from a re-analysis of the deposited data

How the results depend on the processing

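Of the 10 feedback inhibitors, 1 (Spry4, IKVAV PA against PDL control) passed the 1.5-fold bound, and 0 did under a 2-fold bound. Under the other 8 alternatives tried for that count, Spry4 remained past the bound, with a log2 ratio between -0.72 and -0.68, and no other member passed it in any comparison. The members' median ratio stayed between the medians of their lower and upper interval bounds in each comparison under each alternative. No sign of a single member changed but that of Dusp1 in IKVAV PA + PEDOT-S against PDL control, which turned to -0.01 with upper-quartile factors. Without genes with shared exons (chosen after seeing the data) 8 members were left, with medians of -0.35, -0.18 and 0.21. Intervals against 0 moved with the scaling. In IKVAV PA + PEDOT-S against PDL control, 5 lay below 0 and 1 above, against 6 and 0 with total counts and 7 and 0 with upper-quartile factors. Between the scaffolds 9 lay above 0, against 8 under both. In IKVAV PA against PDL control 9 lay below 0, against 10 with total counts. The number of all genes past the bound moved with the filter and the bound. In IKVAV PA against PDL control 550 genes passed, against 245 when 5 CPM was required, 1330 with no filter and 228 with the 2-fold bound. In IKVAV PA + PEDOT-S against PDL control 584 passed, against 269, 1329 and 271, and between the scaffolds 326, against 119, 1353 and 82. No paired analysis was possible because each group has 1 library. With 1 library a group, a difference between cultures of 1 group cannot be told apart from one between conditions.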

Other observations

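Some listed pathway genes outside the naming rule are given here, chosen after their values were seen. Fosl2, an AP-1 factor, was at 308 normalised CPM in the PDL control, 237 with IKVAV PA and 342 with IKVAV PA + PEDOT-S, so that the 2 scaffold libraries lay on either side of the control (log2 ratio between them 0.53, interval 0.51 to 0.56). Dusp2, a nuclear phosphatase first known from activated lymphocytes, was at 3.24, 3.19 and 5.02 CPM in the same order. Its ratio was 0.65 (0.45 to 0.86) between the scaffolds and 0.63 (0.40 to 0.86) for IKVAV PA + PEDOT-S against the control, and neither passed the 1.5-fold bound. Met, the receptor of hepatocyte growth factor, went the other way, at 208, 221 and 158 CPM, with a ratio of -0.48 (-0.51 to -0.45) between the scaffolds. Egr2, an immediate early factor, was at 1.68 CPM in the control, 0.979 with IKVAV PA and 1.80 with IKVAV PA + PEDOT-S (0.87 between the scaffolds, 0.52 to 1.24). Ier3, an early response gene, was at 1.73, 0.995 and 1.56 CPM (0.64, 0.28 to 1.02). Neither passed the bound between the scaffolds. Egr1 showed no such step, at 22.4, 16.5 and 16.0 CPM, so the scaffold libraries lay together below the control.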
